A study of Homo sapiens with 8 samples.

Results

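GATA2 regions inside megabase-long genes are the stretches of chromatin bound by the transcription factor GATA2 whose midpoint falls within a protein-coding gene that spans 1 Mb or more. They were found by merging overlapping peaks of 4 peak lists into 36122 regions and keeping those with a midpoint in such a RefSeq gene span (GRCh38.p14, of which hg38 is another name). This gave 1284 regions, or 3.55% of all, in 69 genes. The chromatin came from VCaP, a human castrate-resistant prostate cancer cell line, held without steroids for 72 h and treated over the last 24 h. Cells of the JQ1 group received 1 µM JQ1, a small molecule that blocks the acetyl-lysine pockets of BET proteins, and cells of the untreated group received the DMSO carrier. Each group had 2 GATA2 precipitates made with the same antibody, and each precipitate had its own peak list. The labels do not say whether the replicates came from separate cultures, so p-values below measure only the spread between these samples.

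GATA2 is a zinc-finger protein that recognises the letters GATA in DNA and works in prostate cells together with the androgen receptor and the pioneer factor FOXA1, mostly at enhancers far from gene starts. Genes longer than a megabase are almost entirely intron. Many of them code for neuronal adhesion molecules, ion channel partners and scaffolds, and several span common fragile sites, where chromosomes break when DNA replication is slowed. A GATA2 region within such a gene lies by necessity in a very long transcription unit, but it need not act on that gene.

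The lists differed greatly in length. JQ1 replicate 1 held 4974 peaks, JQ1 replicate 2 held 32404, untreated replicate 1 held 6902 and untreated replicate 2 held 27373. Read depths are unknown from peak lists, so a region missing from a short list was not called there and is not shown to be unbound. As a check of the cell line, the prostate luminal genes KLK3, KLK2, TMPRSS2 and FOXA1 each had peaks within 50 kb in all 4 lists.

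Almost none of the 1284 regions touched a listed promoter. Against 35116 RefSeq promoter windows, each running from 250 bases before to 50 after a transcription start, only 1 of the 1284 overlapped a window, or 0.0779%. Over all merged regions the share was 0.736%. Few windows were available, since 135 of the 35116 belonged to these genes. Whether the share was low for that number of windows was not tested. The single case lay at a start site within NAALADL2 (NCBI gene 254827), which codes for a relative of the glutamate carboxypeptidase PSMA. It is shown because the whole region fits in the window, so that its sequence can be read. The window is chr3:174859084-174859383 on the plus strand (RefSeq, GRCh38.p14), and capitals mark the 284 bases of the GATA2 region.
NAALADL2: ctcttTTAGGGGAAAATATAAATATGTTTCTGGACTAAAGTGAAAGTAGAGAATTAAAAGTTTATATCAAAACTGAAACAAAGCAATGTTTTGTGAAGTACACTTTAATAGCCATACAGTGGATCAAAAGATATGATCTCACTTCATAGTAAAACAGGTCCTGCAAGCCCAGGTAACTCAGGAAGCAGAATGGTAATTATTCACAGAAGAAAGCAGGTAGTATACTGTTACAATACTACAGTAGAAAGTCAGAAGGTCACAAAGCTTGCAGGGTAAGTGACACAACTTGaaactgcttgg
The longer forms of the GATA site searched for were AGATAA and, with a final G, AGATAG, together with TGATAA and, with a final G, TGATAG. None of them occurred in this window on either strand, while 24.97% of all promoter windows held at least 1. The core GATA occurred once on the plus strand and once in reverse as TATC. The plus-strand core, at 174859213 to 174859216, held the summit of JQ1 replicate 2, at 174859215. Counted from a middle base of the core, the summit lay 49 bases away in untreated replicate 1 and 10 bases away in untreated replicate 2. At least 1 core in either direction was found in 49.7% of all windows. On the −log10 q scale the region reached 19.6 in JQ1 replicate 2, 13.3 in untreated replicate 1 and 35.8 in untreated replicate 2, and it had no peak in JQ1 replicate 1. The q-value is the authors' adjusted p-value of the peak. Start sites were listed for 57 of the 69 genes, which hold 1130 of the regions. These lay a median of 305 kb from the nearest listed start site of their own gene, with 31 within 10 kb and 5 within 1 kb. The listed sites need not include the start of the span. For NAALADL2 the only one was at 174859334, in a plus-strand span that begins at 174440982. Overlaps and distances therefore refer to listed sites only.

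Every one of the 69 genes held at least 1 GATA2 region, and their number differed widely. The genes spanned 1.00 to 2.47 Mb on 19 chromosomes and covered 95.8 Mb together, or 3.25% of the 2944 Mb that the peaks spanned over all chromosomes. They had 1 to 57 regions each, with a median of 16. The 10 genes with most regions held 427 of them, or 33.3%. Over the 69 genes, longer genes had somewhat more regions (Pearson r = 0.31, Spearman rho = 0.33). The number per Mb had almost no relation to length (rho = 0.07). These correlations describe the same 4 libraries across genes.

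The gene with most regions was DLG2 (NCBI gene 1740, chromosome 11, 83455012 to 85628373), which codes for the postsynaptic scaffold PSD-93. It had 57, of which 10 were called in JQ1 replicate 1 and 45 in JQ1 replicate 2, against 11 in untreated replicate 1 and 45 in untreated replicate 2. PDE4D, the gene of a cAMP-degrading phosphodiesterase (NCBI gene 5144, chromosome 5, 58969038 to 60522128), had 56, with 7 and 51 in the JQ1 lists and 13 and 46 in the untreated lists. MACROD2, which codes for an ADP-ribosyl hydrolase (NCBI gene 140733, chromosome 20, 13995516 to 16053197), had 52, with 8 and 42 in the JQ1 lists and 18 and 39 in the untreated lists. At PDE4D and MACROD2, the short JQ1 list had fewer regions than the short untreated list and the long JQ1 list had more, the same order as the lengths of the lists.

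NAALADL2 (chromosome 3, 174440982 to 175810548) held 47 regions, with 6 and 42 in the JQ1 lists and 7 and 28 in the untreated lists. CCSER1, a coiled-coil protein gene (NCBI gene 401145, chromosome 4, 90127394 to 91605295), held 46, with 3 and 40 in the JQ1 lists and 3 and 32 in the untreated lists. CTNNA3, the gene of the adhesion protein alpha-T-catenin (NCBI gene 29119, chromosome 10, 65912523 to 67763594), held 37, with 7 and 28 in the JQ1 lists and 7 and 30 in the untreated lists. FHIT, which codes for a dinucleoside triphosphate hydrolase (NCBI gene 2272, chromosome 3, 59747277 to 61251452), and DAB1, the gene of the reelin pathway adaptor, each held 34. FHIT had 10 and 30 in the JQ1 lists and 11 and 26 in the untreated lists. It also had 7 regions present in every list, the highest number of the 69 genes, ahead of DLG2, MACROD2 and CTNNA3 with 6 each.

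**Figure D1:**
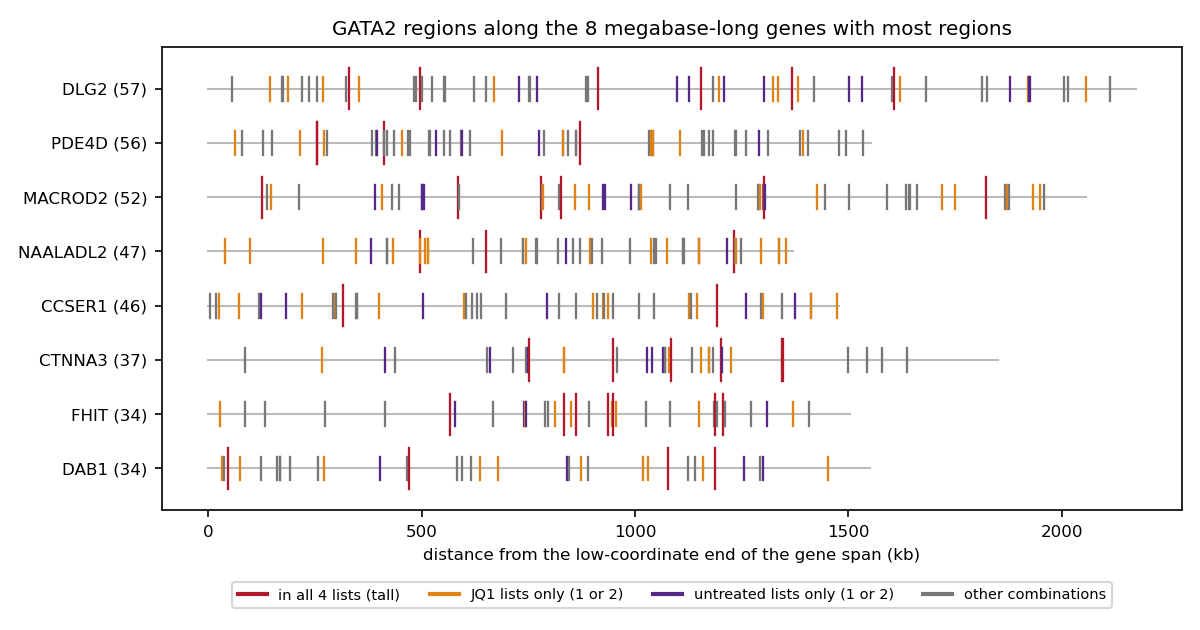
Position of each merged GATA2 region (vertical bar) along the 8 megabase-long genes with most regions, in kb from the low-coordinate end of the gene span; the number of regions stands beside the gene name. Tall red bars mark regions present in all 4 lists, and the other colours mark regions found in JQ1 lists only, in untreated lists only or in other combinations. Regions were spread over the whole span of these genes, and those common to all 4 lists, such as the 7 of FHIT, lay among less often called ones.

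Per Mb of gene, PDE4D stood first with 36.1 regions (95% Poisson interval 27.2 to 46.8, counting error only). It was followed by NAALADL2 with 34.3 (25.2 to 45.6), CCSER1 with 31.1 (22.8 to 41.5), DLG2 with 26.2 (19.9 to 33.98) and SGCD, the gene of delta-sarcoglycan, with 26.0 (17.1 to 37.8). MACROD2 had 25.3 and FHIT 22.6 regions per Mb. Neighbours in this order had overlapping intervals. At the other end stood NRG1, which codes for a ligand of ERBB receptors, with 0.88 per Mb (0.0223 to 4.91) from a single region. CSMD1, the gene of a large complement-regulating membrane protein, had 2 regions in 2.06 Mb, or 0.97 per Mb (0.118 to 3.51). SGCZ, the gene of zeta-sarcoglycan, had 1.73 per Mb, the Slit receptor gene ROBO2 2.29 and the splicing regulator gene RBFOX1 2.83 per Mb. The intervals of the first 5 genes did not overlap those of the last 5.

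The surroundings of a gene went partly with its own density. Within 2 Mb on either side, and leaving out other megabase-long genes, the flanks held 12.5 regions per Mb in all. Gene and flank densities had a Pearson r of 0.54 and a Spearman rho of 0.52 over the 69 genes, which are points from the same libraries on neighbouring sequence. Of the 69 genes, 35 were denser than their flanks and 34 less dense. The Poisson interval of the gene lay above the flank value in 16 genes, below it in 12 and around it in 41. By ratio, the gene furthest above its flanks was IL1RAPL2, an interleukin receptor family gene, with 6.66 per Mb against 2.5. SGCD had 26.0 against 10.75, CADM2, a synaptic adhesion gene, 19.7 against 8.25, and CTNNA3 19.99 against 8.75. PDE4D had 36.1 against 19.25 and NAALADL2 34.3 against 16.5. Furthest below were NRG1, with 0.88 against 8.5, ROBO2, with 2.29 against 11.5, PTPRN2, a receptor phosphatase family gene, with 3.81 against 18.3, CSMD1, with 0.97 against 4.25, and CNTN5, a contactin gene, with 5.98 against 18.8. IL1RAPL2, PTPRN2, CNTN5 and CADM2 were named after their values were seen.

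**Figure D2:**
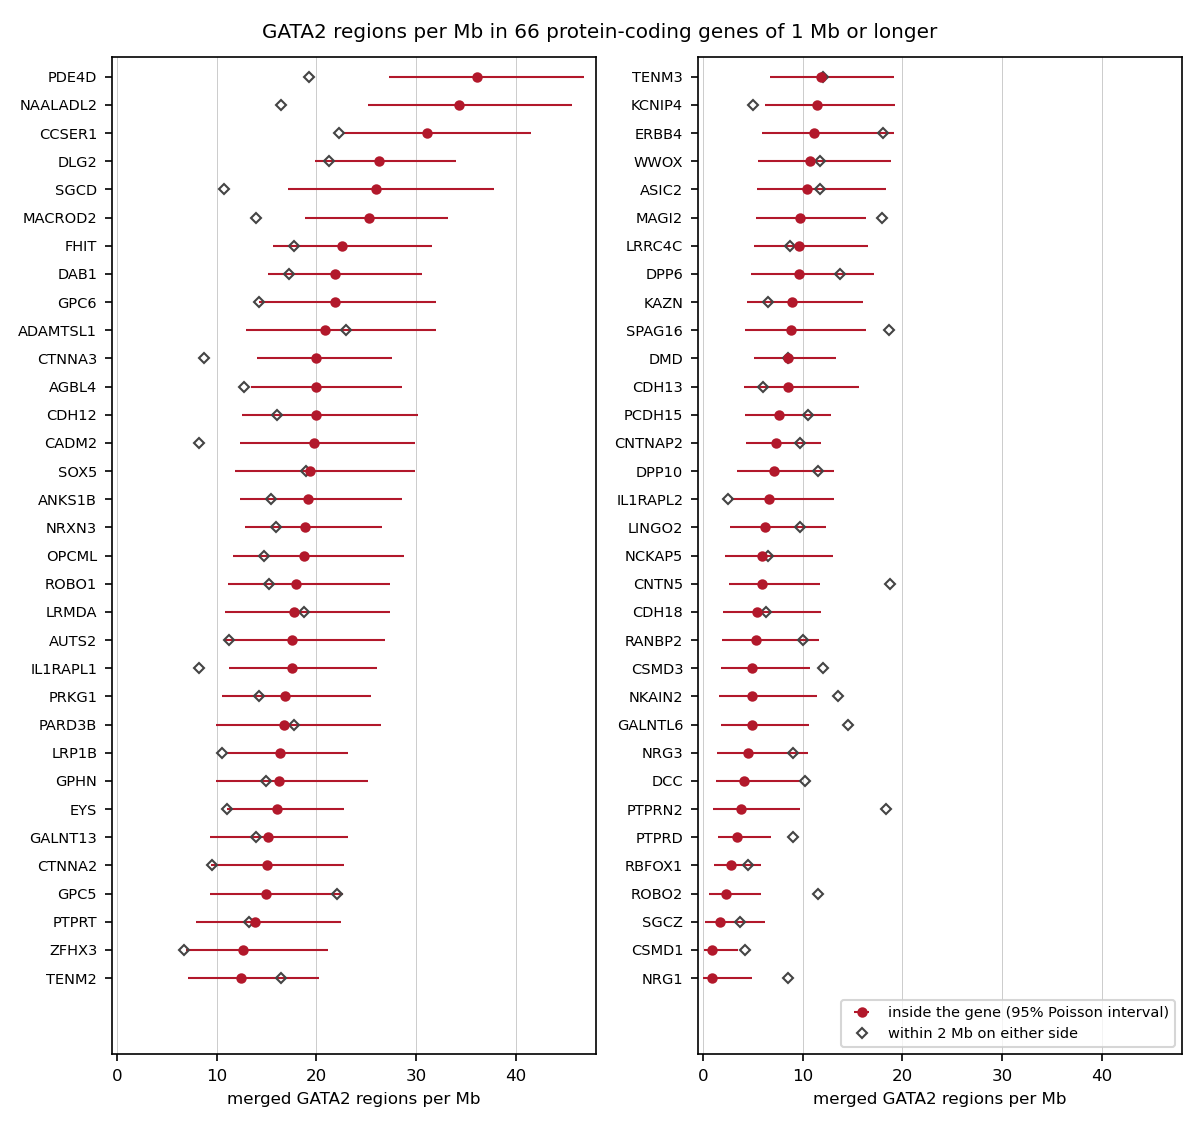
GATA2 regions per Mb (horizontal axis) in 66 of the 69 genes, ordered from the densest at the upper left to the least dense at the lower right. Filled circles with bars are the gene with its 95% Poisson interval, and open diamonds are the sequence within 2 Mb on either side; PDE4D reached 36.1 per Mb against 19.25 in its flanks, and NRG1 0.88 against 8.5.

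Of the 4 megabase-long genes of chromosome 8, 3 were the least dense of all 69. NRG1, CSMD1 and SGCZ held 5 regions between them, all in the first 43 Mb of the chromosome. That stretch had 9.76 regions per Mb as a whole, against 16.7 in the rest of chromosome 8 and 12.3 over the genome. Flank densities were 8.5 per Mb at NRG1, 4.25 at CSMD1 and 3.75 at SGCZ. The other gene, CSMD3, lies in the rest of the chromosome and had 4.94 per Mb against 12 in its flanks. This grouping was chosen after the values were seen.

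Megabase-long genes as a class were not richer in GATA2 peaks than other genes. The density inside them was 1.75 peaks per Mb in JQ1 replicate 1, 11.9 in JQ1 replicate 2, 2.19 in untreated replicate 1 and 10.2 in untreated replicate 2. Shorter protein-coding genes had 1.98 and 12.9 per Mb in the JQ1 lists and 2.80 and 10.7 per Mb in the untreated lists. The ratio was 0.886 and 0.921 in the JQ1 lists and 0.784 and 0.951 in the untreated lists. The megabase-long genes were thus the less dense class in 4 of 4 lists, with a mean log2 ratio of −0.18 ± 0.12 (SD, n = 4 lists). The exact sign-flip permutation test, two-sided, gave p = 0.125, the smallest that 4 lists allow. Many regions are shared between the lists, which are therefore not independent here. The direction depended on what the genes were set against. Relative to all other sequence the mean log2 ratio was 0.05 (3 of 4 lists above 0, exact sign-flip p = 0.375). Against the flanks it was 0.03, and with the limit raised to 1.5 Mb, which leaves 18 genes, it was 0.12 against shorter genes.

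Density did not follow gene length in 1 direction. Genes of 0.1 to 0.5 Mb held 16.1 merged regions per Mb, genes of 0.5 to 1 Mb held 15.9, those of 1 Mb or longer 13.4 and those under 0.1 Mb 11.2. Sequence outside protein-coding genes held 10.8 per Mb. The class of 1 Mb or longer ranked 3 of 5 in density in 3 of the lists and 4 of 5 in untreated replicate 1. Around the limit itself, ASTN2 (0.992 Mb) had 13.1 regions per Mb and CAMTA1 (0.984 Mb) 16.3, while NCKAP5 (1.00 Mb) had 5.98 and ADAMTSL1 (1.00 Mb) 20.9.

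**Figure D3:**
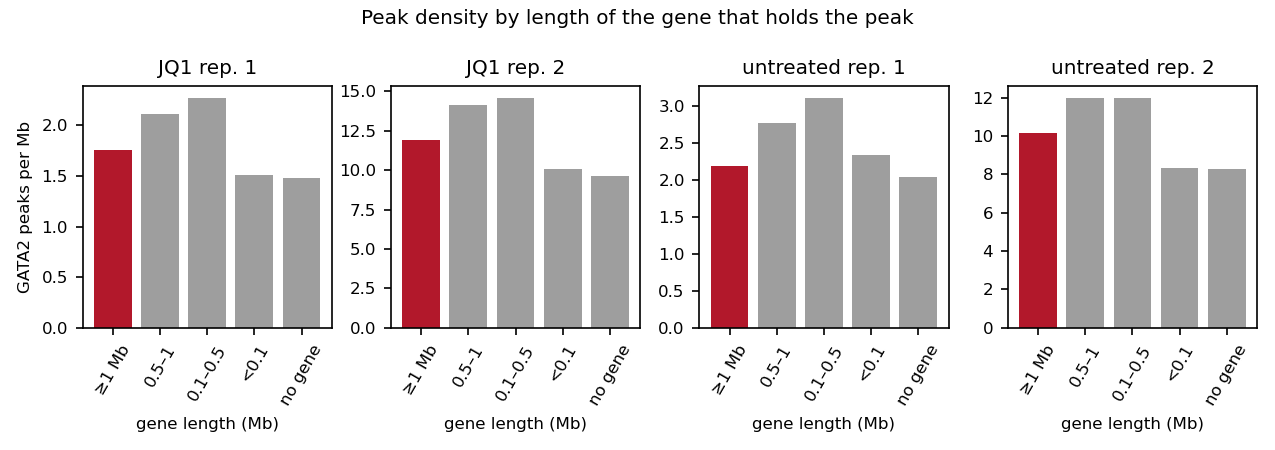
GATA2 peaks per Mb (vertical axis, starting at 0 and scaled to each list) by the length of the longest protein-coding gene that holds the peak. Red bars are genes of 1 Mb or longer and grey bars the other classes; in each list the red bar is lower than those of genes of 0.1 to 1 Mb, as with 11.9 against 14.1 and 14.6 in JQ1 replicate 2.

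Along the genes, GATA2 regions were least frequent in the 20% of the span at the 5′ end. Each span was cut into 5 parts of equal length. For the 57 genes with a listed strand, 15.9% of 1130 regions lay there (95% Wilson interval 13.9 to 18.2), against 21.9%, 21.7%, 18.6% and 21.9% in the next 4 parts. The share of the first part was 9.22% and 15.3% in the JQ1 lists and 13.7% and 15.3% in the untreated lists. It was under 20%, which an even spread would give, in 4 of 4 lists, by 6.62 ± 2.87 percentage points (SD, n = 4 lists; exact sign-flip p = 0.125, the smallest possible). Among the 57 genes, 38 had under 20% of their regions in the first part and 17 had more. Without the 8 genes with most regions the share was 16.8%. Because the 4 lists share many regions, 4 of 4 lists are not 4 independent observations. This comparison was added after the values were seen.

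Neighbouring regions were spaced much as elsewhere. The nearest other region was a median of 13.4 kb away for regions inside megabase-long genes and 14.96 kb for all others, and 44.2% against 40.8% had one within 10 kb. Between neighbouring regions of the same gene, leaving out the stretches to the gene ends, the widest gap was 835 kb, in PTPRN2, followed by 788 kb in TENM3, the gene of a teneurin adhesion protein. In PDE4D the median gap was 16.2 kb and the longest 162 kb. Merged regions had a median width of 244.5 bp inside the genes and 239 bp elsewhere.

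Taken over whole lists, peaks inside megabase-long genes did not rank consistently higher or lower than others. Ranked by q-value within each list, where 0 is the strongest and 100 the weakest peak, their median stood at 54.2 and 49.9 in the JQ1 lists and at 45.98 and 51.6 in the untreated lists. All other peaks had medians of 49.9 and 49.9 in the JQ1 lists and of 50.1 and 49.9 in the untreated lists. The difference averaged 0.455 ± 3.51 percentile points (SD, n = 4 lists; exact sign-flip p = 0.75), with 2 lists above 0, 1 at 0 and 1 below. The authors' fold enrichment, which is the peak's signal over local background, had a median of 5.94 and 6.62 in the JQ1 lists and of 6.36 and 7.46 in the untreated lists. For other peaks it was 5.94 and 6.62 with JQ1 and 6.13 and 7.46 untreated.

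A core of 98 regions inside megabase-long genes was present in all 4 lists, or 7.63% (95% Wilson interval 6.30 to 9.21), against 8.96% of all merged regions. With lists of equal length the share inside these genes was 17.6%, and the share over all merged regions was not computed at that setting. The 98 lay in 46 of the 69 genes. Most members rested on replicate 2 alone: 516 were in both replicate 2 lists only, or 40.2% against 38.0% of all regions. A further 330 were in JQ1 replicate 2 only (25.7% against 25.9% of all regions) and 175 in untreated replicate 2 only (13.6% against 13.3%). Just 4 were in JQ1 replicate 1 only (0.312% against 0.202%) and 3 in untreated replicate 1 only (0.234% against 0.634%). The shares that rest on replicate 2 were near those of the whole set.

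Among the best-ranked of the 98 was a region in CNTNAP2, the gene of a neuronal adhesion protein, on chromosome 7 at 148282076 to 148282754, with −log10 q values of 37.7 and 142.0 in the JQ1 lists and 46.8 and 159.5 in the untreated lists. Another was in DLG2, at 83784324 to 83784962, with 42.4 and 159 in the JQ1 lists and 33.3 and 160.1 in the untreated lists. CNTNAP2 thus held a strong region although it was a sparse gene, with 7.38 regions per Mb. Within each list both regions stood in the top 8.28% of peaks.

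PDE4D held a further one at 59223614 to 59224016, which reached 29.8 and 162.7 with JQ1 and 39.98 and 121.8 untreated on the same scale. Others among the 10 best by mean rank lay in EYS, which codes for a photoreceptor matrix protein, in DLG2, in KAZN, the gene of the junction protein kazrin, in PRKG1, which codes for a cGMP-dependent kinase, in the polarity gene PARD3B and again in PDE4D. As a group, the 98 ranked somewhat lower than the 3138 other regions common to the lists. Their median rank percentile was 43.1 and 8.30 in the JQ1 lists and 34.5 and 8.22 in the untreated lists, against 37.2 and 7.40 with JQ1 and 28.8 and 7.91 untreated for the others. This difference was not tested. Values of −log10 q differ between lists with depth and pull-down, so they were not compared between treatments.

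**Figure D4:**
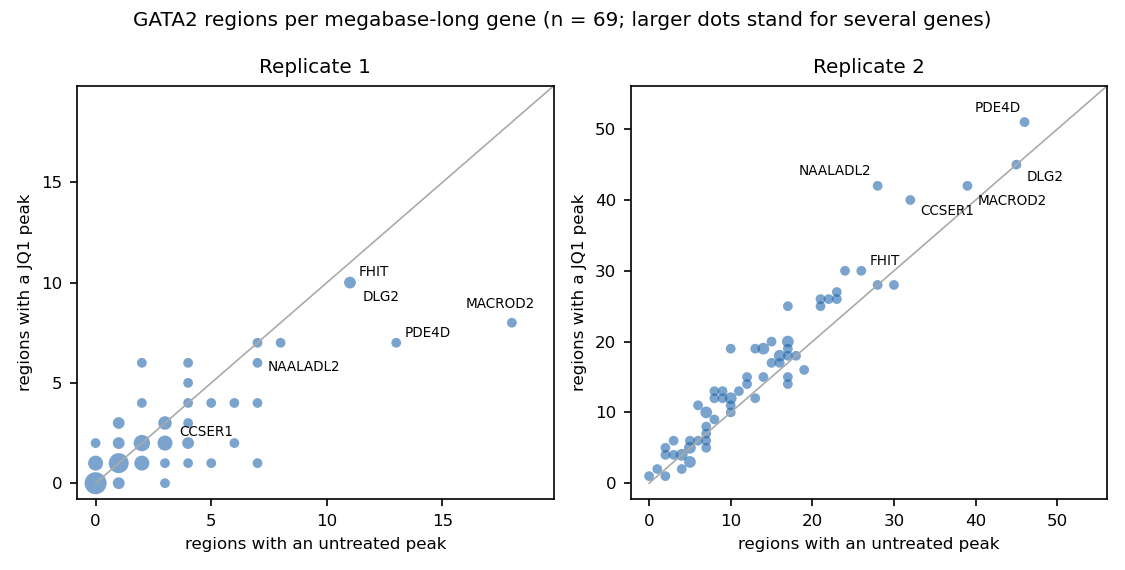
Number of GATA2 regions per megabase-long gene with a JQ1 peak (vertical axis) and with an untreated peak (horizontal axis), for replicate 1 and replicate 2; each dot is a gene or several genes with the same pair of values, and the line marks equal numbers. In replicate 1 the 8 genes with most regions lie on or under the line, MACROD2 with 8 JQ1 and 18 untreated regions, and in replicate 2 most genes lie above it.

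Between JQ1 and untreated lists, the number of GATA2 peaks inside megabase-long genes differed by less than the spread between replicates. JQ1 lists held 168 and 1141 such peaks and untreated lists 210 and 972. JQ1 over untreated, the geometric means had a ratio of 0.969, a log2 value of −0.05 (exact permutation p = 1, two-sided, where the smallest possible p is 0.333). The replicates went in opposite directions, with a JQ1 to untreated ratio of 0.8 in replicate 1 and of 1.17 in replicate 2. For whole lists the ratios were 0.721 in replicate 1 and 1.18 in replicate 2. As a share of each list, the peaks made up 3.38% and 3.52% of the JQ1 lists and 3.04% and 3.55% of the untreated lists. The shares averaged 3.45% ± 0.102 with JQ1 and 3.30% ± 0.359 untreated (SD, n = 2 each), a difference of 0.153 percentage points (exact permutation p = 1).

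By gene, the replicates gave the same picture as the list lengths. In replicate 1, 13 genes had more regions with JQ1, 28 had fewer and 28 had equal numbers. In replicate 2, 48 had more with JQ1, 11 had fewer and 10 had equal numbers. Taken as a share of all regions of the list, 12 of the 64 genes with 5 or more regions were lower with JQ1 in both replicates (18.8%) and 17 were higher in both (26.6%). Over all 1070 protein-coding genes with 5 or more regions the shares were 19.5% and 23.8%, so the megabase-long genes stood near this background. By this share, MACROD2, PDE4D and CNTNAP2 were among the lower. NAALADL2, CCSER1 and GPHN, the gene of the receptor anchor gephyrin, were among the higher. In replicate 1, CNTNAP2 had 1 region with JQ1 and 2 untreated. NAALADL2 had 6 with JQ1 and 7 untreated, CCSER1 had 3 and 3, and GPHN had 4 and 4. The genes named as higher were thus higher in replicate 1 only as a share of the shorter JQ1 list.

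Regions bound in both untreated lists were mostly found again in at least 1 JQ1 list. Inside megabase-long genes there were 198 such regions (15.4% of them, against 17.6% of all merged regions). Of these, 185 were in at least 1 JQ1 list, or 93.4% (95% Wilson interval 89.1 to 96.1). Elsewhere the share in at least 1 list was 96.6% (96.1 to 97.0). Only 98 of the 198 were in both JQ1 lists, or 49.5% (42.6 to 56.4), against 50.9% elsewhere. Of 155 regions in both JQ1 lists (12.1%, against 13.1% of all), 150 were in at least 1 untreated list, or 96.8% (92.7 to 98.6), against 97.1% elsewhere, and 63.2% (55.4 to 70.4) were in both, against 68.8% elsewhere. Within a replicate, 49.3% of untreated peak intervals inside these genes were overlapped in the JQ1 list of replicate 1, against 48.6% of other intervals, and 79.98% in replicate 2, against 80.8%. The difference was 0.679 and −0.86 percentage points. In the other direction, the untreated list overlapped 62.2% (54.6 to 69.3) of JQ1 intervals inside these genes in replicate 1, against 67.9% elsewhere, and 69.2% in replicate 2, against 68.95%. The difference there was −5.67 and 0.25 percentage points. Of the strongest 20% of untreated peaks, by q-value, JQ1 lists overlapped 34 of 41 inside these genes in replicate 1, or 82.9% (95% Wilson interval 68.7 to 91.5), against 88.4% of the other strong peaks. In replicate 2 they overlapped 195 of 195, against 4980 of 4982 others.

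Only 5 regions inside megabase-long genes had a peak in each JQ1 list but in no untreated list, or 0.389% against 0.377% of all merged regions. PRKG1, GPHN and DLG2 were among their genes. The PRKG1 region, on chromosome 10 at 52050466 to 52050940, reached −log10 q values of 9.06 and 7.74 with JQ1. The GPHN region, on chromosome 14 at 67371495 to 67371969, had 4.25 and 33.1. The DLG2 region, on chromosome 11 at 83642559 to 83642746, had 3.10 and 4.16, at rank percentiles of 91.4 and 89.7.

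Conversely, 13 regions in 10 genes had a peak in each untreated list but in no JQ1 list, or 1.01% (95% Wilson interval 0.593 to 1.72) against 0.620% of all merged regions. This interval covers counting error only, and regions of the same libraries are not replicates, so it does not test the treatment. With lists of equal length, 10 regions were found in the JQ1 lists alone and 9 in the untreated lists alone. The order of the counts thus did not hold there, and shares over all merged regions were not computed at that setting. FHIT, MACROD2 and AGBL4, which codes for a carboxypeptidase that trims glutamates, had 2 each. The region of FHIT on chromosome 3 at 60325835 to 60326084 reached −log10 q values of 14.02 and 22.1 untreated. That of MACROD2 on chromosome 20 at 14497055 to 14497324 had 10.8 and 27.8. OPCML, an immunoglobulin adhesion gene, had one on chromosome 11 at 132867348 to 132867569, with 8.36 and 25.2. LRP1B, a lipoprotein receptor family gene, had one with 7.11 and 8.83. The other regions lay in CCSER1, RANBP2, LRMDA, AUTS2 and NCKAP5. These ranked low, with the poorer rank percentile of each from 76.8 in CCSER1 to 93.3 in NCKAP5. For the FHIT region described above it was 33.8. FHIT therefore held both 7 regions common to every list and 2 that were called in untreated cells only.

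The genes were grouped by role from lists made with earlier results of these data known. The 16 genes of common fragile sites held 454 regions, or 17.4 per Mb, against 11.9 per Mb in the 53 other megabase-long genes. The median over the fragile site genes was 17.6 per Mb, against 12.5 over all 69 genes, which include them. The order was the same in every list. It was 2.26 against 1.45 and 14.4 against 10.2 regions per Mb in the JQ1 lists. In the untreated lists it was 3.18 against 1.71 and 12.9 against 8.66. The lists have many regions in common, so they are not independent on this point, and the difference was not tested. Their flanks were also denser, with 14.1 per Mb against 12.05 at the other genes. CCSER1, DLG2, MACROD2 and FHIT led this group. The sparser genes of the group included WWOX, an oxidoreductase gene, at 10.8 per Mb, DMD at 8.56 and CNTNAP2 at 7.38.

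The 21 genes of synaptic adhesion and axon guidance held 351 regions, or 11.97 per Mb, down to ROBO2 at 2.29. The 9 cadherin, catenin and junction genes held 154, or 12.6 per Mb, from CTNNA3 at 19.99 to the cadherin gene CDH18 at 5.43. The list made for scaffold and dystrophin complex genes also took in EYS, CSMD3 and CSMD1, which its name does not describe. Its 8 genes held 159 regions, or 11.97 per Mb, from DLG2 to CSMD1. DMD, the dystrophin gene, had 19 regions in 2.22 Mb, or 8.56 per Mb, close to the 8.54 of its flanks.

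The 16 genes of signalling enzymes, receptors and ligands held 334 regions, or 14.97 per Mb, from PDE4D at 36.1 to NRG1 at 0.88. ERBB4, a receptor for NRG1, had 13 regions, or 11.2 per Mb against 18.1 in its flanks. The 5 genes of ion channel partners and neurotransmitter receptors held 78, or 12.2 per Mb, down to DPP10, a potassium channel partner, at 7.13. The list of transcription and RNA regulators held 3 genes of this length, with 48 regions in all: the transcription factor gene SOX5 had 19.4 per Mb, AUTS2 17.6 and RBFOX1 2.83. ZFHX3, a zinc-finger homeobox transcription factor gene that stood on no list, had 14 regions, or 12.6 per Mb. Regions common to the 4 lists were found in 13 of the 16 fragile site genes, 13 of the 21 synaptic genes and 8 of the 16 signalling genes. Over all megabase-long genes they were found in 46 of 69. Counted by region, they were 39 of 454, 22 of 351 and 29 of 334 in these groups. The number was 98 of 1284 (7.63%) in all 69 genes, and the share of all merged regions was 8.96%. Genes may stand on more than 1 list.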

How the data were processed

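GATA2 ChIP-seq peak lists of 2 JQ1 and 2 untreated VCaP precipitates were analysed, and lists for the 4 inputs were not used here. The submitters' processing notes name build hg38 and the tools MACS2, Bowtie2 and Picard, without versions. As the labels tie each file to 1 sample, each list belongs to 1 precipitate, and peaks were called per sample. The deposited columns hold the caller's whole-number score (not used in any test), the fold enrichment at the summit as a linear ratio, and the −log10 of the p-value and of the q-value. The deposited summit offset gave summits.

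Lines on chromosomes 1 to 22, X and Y were kept and each counted as 1 peak. Peaks overlapping by 1 bp or more over the 4 lists were merged. Genes were protein-coding spans of a RefSeq table (GRCh38.p14, 20037 genes), which gives no exons, so exon and intron positions were not analysed here. Strand and start sites came from the RefSeq promoter table. No genome was used, so sequences of most regions were not analysed here. Each list was the replicate. JQ1 and untreated lists were compared by an exact permutation test over the splits of 4 lists, and members with other peaks by an exact sign-flip test over the 4 lists, both two-sided. Shares carry 95% Wilson intervals, and counts per gene exact Poisson intervals, for counting error only. The precision of a share is set by the number of peaks, since read depth is unknown. Python 3.11.15, pandas 2.3.3, scipy 1.17.1 and statsmodels 0.14.6 were used, and the functions were tested on simulated data. Alternatives were the summit, other gene length limits, q of 1e-05 or less, equal list lengths, a reciprocal overlap of 50%, a replicate block, other comparators and leaving out each replicate.

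Genes named are DLG2, FHIT, MACROD2 and CTNNA3, the 8 with most regions, the 8 densest and 5 least dense, those of the 10 best-ranked regions in all 4 lists and of regions separated by treatment, and the ends of each role list. The members, lists and tests were chosen with earlier results of these data known. Values of 3 of the 69 genes are not reported here by gene, although they enter every count.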

Additional observations from a re-analysis of the deposited data

Results flagged for a closer look

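Outside the chromosomes analysed, the mitochondrial genome had 10 peak lines in JQ1 replicate 1 and 0 in each of the other 3 lists, with a fold enrichment of 1.36 to 1.87. These lines enter no count above.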

How the results depend on the processing

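Of 64 alternative values, 42 were counted as unchanged. For the numbers of regions separated by treatment, this meant a change by a factor of at most 1.5. For the other results it meant the same direction, or a value within the range set by replicate or counting error. Using summits in place of midpoints left every result on its side. The log2 ratio of peak numbers, JQ1 over untreated, was 0.0788 with lists of equal length (4974 peaks) and ran from −0.32 to 0.23 when a replicate was left out. The difference in share of peaks was −0.0452 percentage points for genes of 1.5 Mb or longer and ran from −0.0298 to 0.335 without a replicate. The log2 density ratio against shorter genes was 0.12 for genes of 1.5 Mb or longer, and it was 0.0515 against all other sequence and 0.0338 against flanks, the last chosen after seeing the data. The rank difference was −2.14 percentile points for genes of 1.5 Mb or longer. The difference in share found again with JQ1 was −2.39 percentage points for peaks with a q-value up to 1e-05.

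The share of regions common to all lists was 9.66% for genes of 1.5 Mb or longer and 17.6% with lists of equal length, and 37.7% to 58.9% without a replicate, where only 2 lists had to share a region. JQ1-separated regions numbered 11 with a limit of 0.8 Mb (126 genes), 2 with 1.5 Mb (18 genes), 2 for peaks with a q-value up to 1e-05 and 10 with equal list lengths, and 62 to 336 without a replicate. Untreated-separated regions numbered 9 with equal list lengths, 7 with 1.5 Mb and 105 to 189 without a replicate. None of these shares and counts was computed over all merged regions at the same setting, so they have no background beside them. For the other changes the cause was not tested. With the replicate block the log2 ratio of peak numbers was −0.05 and the share difference 0.153 percentage points (exact sign-flip p = 1 for both, where 2 pairs cannot give less than 0.5). The labels do not say that a replicate number marks a shared batch. Over the 69 genes the deviations of replicate 1 from the group means had a correlation of 0.31 between groups. Both replicate 1 lists were short, so this value cannot tell whether a batch was shared. One limit is the short replicate 1 lists, in which 13 genes had no region with JQ1 and 15 none untreated.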
